A study of Mus musculus with 48 samples.

Results

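Transcripts of 10 acute phase proteins were followed in mouse liver: the serum amyloid A genes Saa1, Saa2 and Saa3, the orosomucoid genes Orm1, Orm2 and Orm3, lipocalin 2 (Lcn2), haptoglobin (Hp) and the pentraxin genes Crp and Apcs. They were chosen by symbol, as every non-control probe whose gene name in the scanner files was 1 of these 10. This gave 13 of 56605 probes. All 13 probes, and so all 10 genes, were among the 30793 probes and 20486 genes that passed the filter on dim probes. Lcn2, Orm3 and Crp have 2 probes each, and the brighter probe stands for the gene unless stated otherwise. Each of 48 male mice gave liver RNA for a single one-colour Agilent microarray, with 6 mice in each of 8 groups. p110αhep-/- mice (LKO) are albumin-Cre+/- p110αflox/flox, so that Pik3ca, which encodes the p110α subunit of phosphoinositide 3-kinase, is cut in cells in which the albumin promoter is active, the hepatocytes, while other liver cells keep it. Their p110αhep+/+ controls (LWT) are floxed littermates without Cre. From 12 weeks of age mice of both genotypes had the control diet D12450J (CTRL) or the high-fat diet D12492 (HFD), in which fat gives 60% of calories, for 12 weeks. They were then left with food or fasted for 24 h, and all were killed at Zeitgeber time (ZT) 16, counted in hours from lights on.

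The acute phase response is the change in the proteins that the liver secretes after infection, injury or lasting inflammation. In hepatocytes, interleukin 6 acts through gp130 and STAT3, interleukin 1 and tumor necrosis factor act through NF-kB, and C/EBP factors join them at the promoters of the induced genes. Serum amyloid A proteins travel on high-density lipoprotein, orosomucoids carry small molecules in plasma, lipocalin 2 withholds iron from bacteria by binding their siderophores, haptoglobin binds free hemoglobin, and the pentraxins C-reactive protein and serum amyloid P component bind microbes and dying cells. In the mouse, serum amyloid A and serum amyloid P component are major reactants and C-reactive protein is a minor one. Saa3 differs from Saa1 and Saa2 in that it is also made by macrophages and fat cells.

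Sequences before the transcription start are shown for 2 pairs of gene copies, because Saa1 and Saa2 were high in the same mice, whereas Orm3 was called in several comparisons and Orm2 in none. RefSeq promoters of build GRCm38.p6 were found for 8 of the 10 genes, all but Orm1 and Hp. The 250 bases before the start lie at chr7:46742981-46743230 on the minus strand for Saa1, chr7:46751583-46751832 on the plus strand for Saa2, chr4:63362199-63362448 on the plus strand for Orm2 and chr4:63355908-63356157 on the plus strand for Orm3. They are written 5′ to 3′, and capitals mark matches on either strand to the letters TTNNGNAA, a core of C/EBP sites (TTNCNNAA on the other strand).
Saa1: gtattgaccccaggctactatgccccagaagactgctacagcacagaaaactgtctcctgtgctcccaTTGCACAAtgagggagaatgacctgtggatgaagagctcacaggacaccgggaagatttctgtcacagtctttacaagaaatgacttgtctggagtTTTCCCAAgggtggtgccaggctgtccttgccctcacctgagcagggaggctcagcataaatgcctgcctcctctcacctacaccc
Saa2: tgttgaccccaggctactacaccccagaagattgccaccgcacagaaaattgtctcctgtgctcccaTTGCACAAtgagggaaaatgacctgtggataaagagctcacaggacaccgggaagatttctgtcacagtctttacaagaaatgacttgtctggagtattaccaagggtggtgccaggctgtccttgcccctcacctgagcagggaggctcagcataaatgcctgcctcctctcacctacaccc
Orm2: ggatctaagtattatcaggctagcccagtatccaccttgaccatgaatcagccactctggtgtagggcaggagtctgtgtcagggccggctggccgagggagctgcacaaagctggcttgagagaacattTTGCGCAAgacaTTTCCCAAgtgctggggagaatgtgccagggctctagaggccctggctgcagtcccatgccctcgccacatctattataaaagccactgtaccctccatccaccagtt
Orm3: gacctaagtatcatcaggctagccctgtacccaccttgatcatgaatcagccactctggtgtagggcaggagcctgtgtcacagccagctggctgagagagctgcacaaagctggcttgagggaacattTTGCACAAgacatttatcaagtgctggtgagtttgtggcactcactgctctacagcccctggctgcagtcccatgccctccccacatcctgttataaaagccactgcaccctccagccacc
Saa1 and Saa2 matched at 238 of 251 aligned columns (94.8%), and Orm2 and Orm3 at 219 of 255 (85.9%). The C/EBP letters occurred 2 times before Saa1, 1 time before Saa2, 2 times before Orm2 and 1 time before Orm3. Saa3 had 4 such matches, Lcn2 and Crp 1 each, and Apcs none. At 36.8% of 32851 promoters of this length, the letters are common. The STAT letters TTCNNNGAA, in 7.02% of promoters, occurred only before Apcs (1 match), and the NF-kB letters GGNNTTTCC (GGAAANNCC on the other strand), in 4.93%, only before Saa3 (1 match, which shares bases with a C/EBP match). A match describes the letters in this window and no more.

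The arrays were alike in quality: 50.1 to 57.4% of probes were well above background, the median spot signal was 48 to 65.5 over a local background of 22 to 42, and no probe of the 10 genes was saturated. As labelled, all samples were liver, with a summed signal of 5 hepatocyte markers (Alb, Ttr, Cps1, Hnf4a, Apob) of 778500 to 903800. Alb, the brightest of the 5, lay at 18.82 to 18.95 in all mice after quantile normalization, so the narrow range of the sum checks little. The Pik3ca probe was not lower in p110αhep-/- mice. It was higher by 0.39 on the log2 scale in fed mice on CTRL diet (adjusted p = 0.000419) and by 0.58 on HFD (adjusted p = 2.99e-07), and in fasted mice by 0.08 and 0.25, so it does not check the deletion and the genotypes are taken as labelled. Each group was washed in 2 batches of 3 arrays. Replicate 3 of fed p110αhep-/- mice on HFD had the lowest array weight in the fit (0.354), the lowest Orm3 signal of its group (7.86) and the highest Saa3 signal (11.87). Without it, the 6 genes that fell between genotypes in fed mice on HFD and the 3 that rose with the fast in p110αhep-/- mice on HFD were called again. Whole liver was measured, in which fewer cells of a type and less RNA per cell cannot be told apart. Values are normalized log2 signals. A gene is called changed at an adjusted p, from limma over all probes, of at most 0.05 together with a fold over 1.5, and only then is it said to have risen or fallen. Fold changes come from this weighted fit with their standard error (SE) and 6 mice per group, and can differ a little from the difference of plain means. The comparisons share groups, so that their results are not independent.

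**Figure D1:**
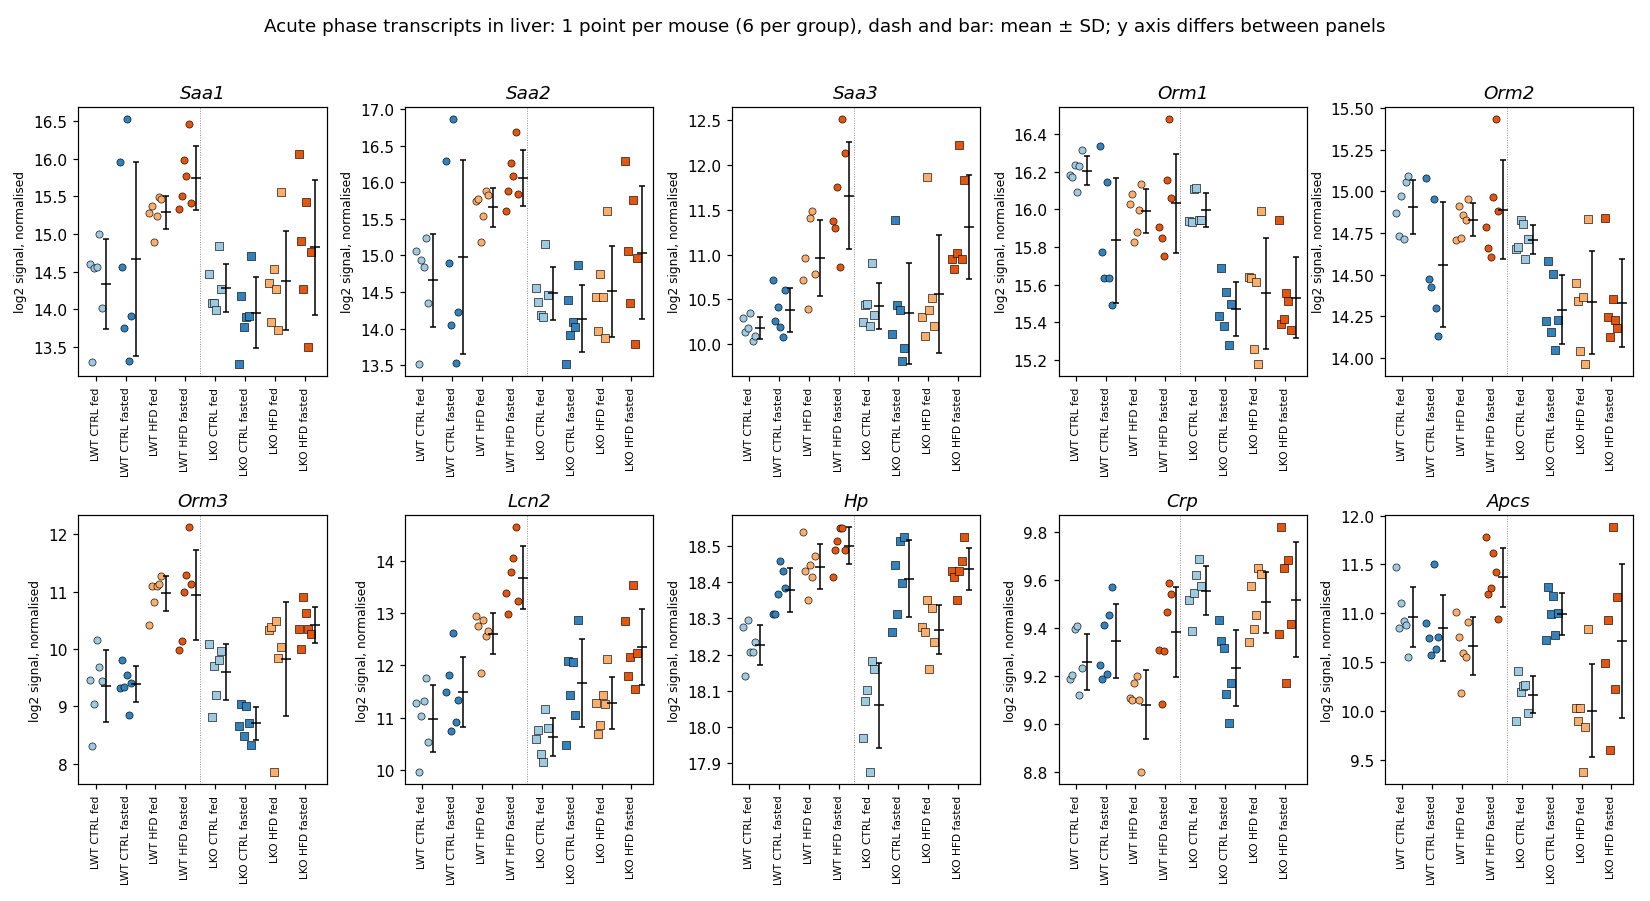
Normalized log2 signal of the 10 acute phase genes (y axis, scaled separately in each panel) in the 8 groups (x axis), with 1 point per mouse and the mean ± SD of 6 mice as dash and bar. Lcn2 lay at 12.98 to 14.63 in fasted LWT mice on HFD, above every mouse of the other LWT groups, and Saa1 reached 16.53 in a single fasted LWT mouse on CTRL diet.

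HFD raised 5 of the 10 genes in p110αhep+/+ mice, in 1 or both states, and 2 in p110αhep-/- mice. In fed p110αhep+/+ mice, 3 of 10 genes rose on HFD (Saa3, Orm3 and Lcn2) and none fell, against 2.65% of all 20486 genes called higher and 1.11% called lower. In fasted p110αhep+/+ mice 5 of 10 rose (Saa1, Saa2, Saa3, Orm3 and Lcn2), against 1.83% higher and 0.976% lower over all genes. In fed p110αhep-/- mice none of the 10 was called on HFD, against a background of 1.29% higher and 1.03% lower. There 2 of the 10 (Orm1 and Hp) had an adjusted p of at most 0.05, as did 12.2% of all genes. In fasted p110αhep-/- mice 2 of 10 rose (Saa3 and Orm3), against 0.918% higher and 0.971% lower. The median log2 fold change of the 10 genes was 0.51 and 0.85 in fed and fasted p110αhep+/+ mice, against -0.01 and -0.02 over all genes, and -0.03 and 0.53 in fed and fasted p110αhep-/- mice, against -6e-04 and -8e-04.

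Between the genotypes, the counts of genes called lower in p110αhep-/- mice were 6 and 3 of 10 on HFD and 1 and 0 on CTRL diet, fed and fasted. In fed mice on HFD 6 of 10 fell (Saa1, Saa2, Saa3, Orm3, Lcn2 and Apcs), against 4.04% of all genes called lower and 2.2% called higher. All 10 had an adjusted p of at most 0.05 in that comparison, 9 of them lower and only Crp higher, where 32.9% of all genes did. In fasted mice on HFD 3 of 10 fell (Saa2, Lcn2 and Apcs), against 4.22% lower and 2.31% higher. On CTRL diet only Apcs fell in fed mice, against 2.19% lower and 1.53% higher, and none of the 10 was called in fasted mice, against 1.9% lower and 1.33% higher. That 0 came from limma. Orm1 alone had an adjusted p of at most 0.05 there, where 24.8% of all genes did. The median log2 fold change of the 10 genes was -0.65 in fed and -0.52 in fasted mice on HFD, against 0.03 over all genes in both.

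The 24 h fast raised Lcn2 and Apcs in 3 of the 4 backgrounds, all but p110αhep+/+ mice on CTRL diet. None of the 10 genes was called in p110αhep+/+ mice on CTRL diet, where 2.93% of all genes were higher and 2.52% lower after the fast. There 3 of the 10 (Orm1, Orm2 and Hp) had an adjusted p of at most 0.05, as did 32.5% of all genes. In p110αhep+/+ mice on HFD 2 of 10 rose, against 2.24% higher and 2.47% lower. On CTRL diet 2 rose and Orm3 fell in p110αhep-/- mice, against 3.65% higher and 3.43% lower. In p110αhep-/- mice on HFD 3 rose (Saa3, Lcn2 and Apcs), against 2.76% higher and 3.14% lower.

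**Figure D2:**
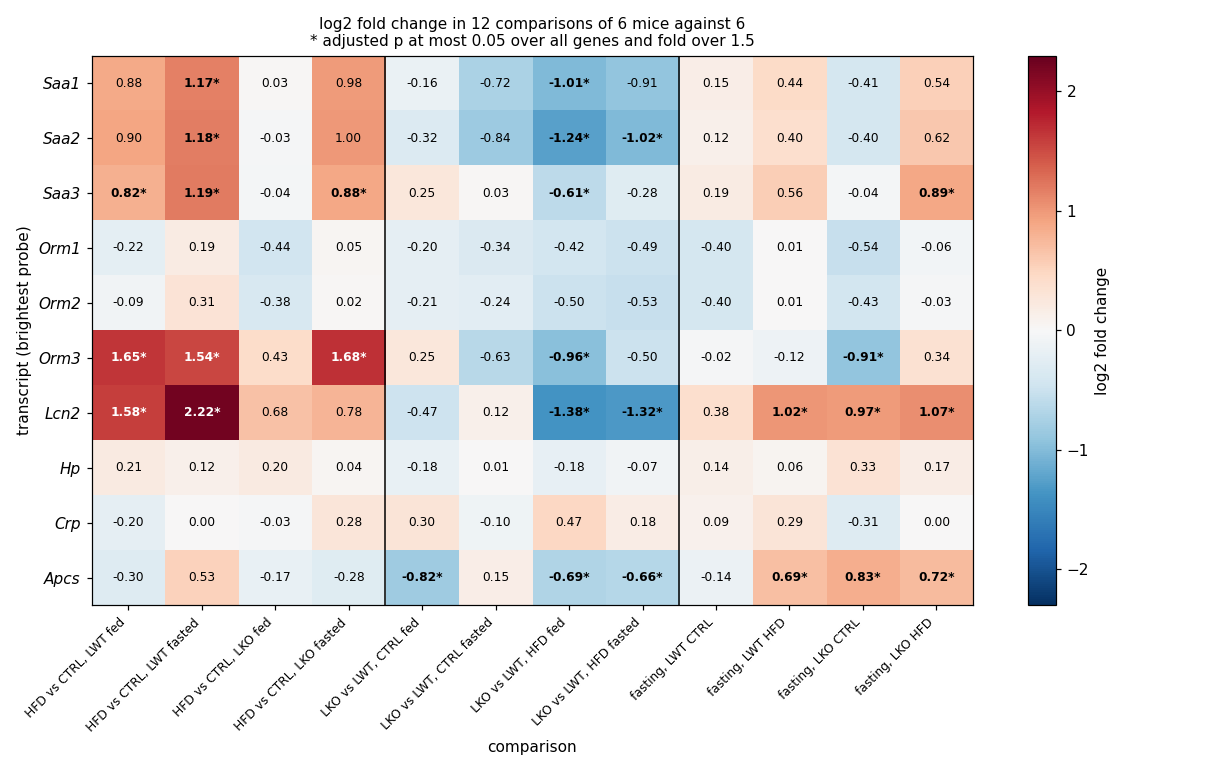
Weighted log2 fold changes (colour and number) of the 10 acute phase genes (rows) in 12 comparisons of 6 mice against 6 (columns), with a star where the adjusted p is at most 0.05 and the fold over 1.5. The 3 genes Saa3, Orm3 and Lcn2 carry stars in both diet comparisons of LWT mice, and the comparison of genotypes in fed mice on HFD holds 6 stars, the most of any column.

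Saa1 and Saa2 encode the circulating serum amyloid A proteins. In p110αhep+/+ mice on CTRL diet, Saa1 ran from 13.30 over a median of 14.55 to 15.0004 when fed and from 13.32 over 14.24 to 16.53 when fasted. On HFD the same genotype had 14.89, 15.32 and 15.50 as lowest, median and highest when fed and 15.33, 15.64 and 16.46 when fasted. The fasted mice on CTRL diet were thus the most spread group, since 2 of them (replicates 1 and 4, at 15.95 and 16.53) lay within or above the range of the fasted mice on HFD and the other 4 at or below 14.56. Saa1 of p110αhep-/- mice ran from 13.98 over 14.17 to 14.84 (CTRL, fed), from 13.28 over 13.90 to 14.71 (CTRL, fasted), from 13.72 over 14.31 to 15.56 (HFD, fed) and from 13.49 over 14.83 to 16.06 (HFD, fasted). All these groups overlap their neighbours. From the highest to the lowest mean the order was fasted and fed p110αhep+/+ mice on HFD, fasted p110αhep-/- mice on HFD, fasted p110αhep+/+ mice on CTRL diet, fed p110αhep-/- mice on HFD, then fed p110αhep+/+, fed p110αhep-/- and fasted p110αhep-/- mice on CTRL diet, and only the top step (0.45) exceeded the pooled SD of the 2 groups (0.34).

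In fasted p110αhep+/+ mice HFD raised Saa1 by 1.17 ± 0.36 (log2 fold change ± SE, adjusted p = 0.0221) and Saa2 by 1.18 ± 0.36 (adjusted p = 0.0228). Both calls rest on single mice and on the washing batch. They were lost with no array weights (adjusted p 0.0646 and 0.0664) and with only the groups compared (0.107 and 0.106), and that of Saa2 with the processed signal (adjusted p = 0.0515). The exact permutation test on unweighted means (two-sided, its p given unadjusted here and in the following) gave p = 0.0801 and 0.0866. They were also lost without replicate 3, 5 or 6 of the fasted p110αhep+/+ mice on CTRL diet (log2 fold change 0.86 to 0.98 and adjusted p 0.0795 to 0.114 for Saa1, 0.84 to 0.98 and 0.0816 to 0.121 for Saa2). The 2 high mice on CTRL diet were both washed in batch 1, and the change was 0.07 in batch 1 and 2.19 in batch 2 for Saa1, and 0.09 and 2.21 for Saa2. In fed p110αhep+/+ mice the diet gave 0.88 for Saa1 (adjusted p = 0.0672) and 0.90 for Saa2 (adjusted p = 0.0642). In fasted p110αhep-/- mice it gave 0.98 (adjusted p = 0.1) and 1.00 (adjusted p = 0.0971). None of these was called by limma. The exact permutation test gave p = 0.00433 for each gene in the fed mice. Adjusted over its own tests it was 0.0208, with plain differences of 0.95 and 1.00, past both thresholds. Leaving out replicate 5 of the CTRL group, Saa1 passed in the fed mice (1.02, adjusted p = 0.0495). Leaving out replicate 5 of the HFD group, both passed in the fasted p110αhep-/- mice (adjusted p 0.035 and 0.0403). In fed p110αhep-/- mice the diet differences were 0.03 (95% interval -0.76 to 0.82) and -0.03 (-0.82 to 0.77).

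On HFD, Saa2 was lower in p110αhep-/- than in p110αhep+/+ mice in both states. Fed, it ran from 13.88 over 14.44 to 15.60 in p110αhep-/- and from 15.18 over 15.75 to 15.88 in p110αhep+/+ mice, and it fell by 1.24 ± 0.38 (adjusted p = 0.00991), with -1.4997 in washing batch 1 and -0.75 in batch 2. Only the highest p110αhep-/- mouse reached the range of the p110αhep+/+ mice. Fasted, Saa2 fell by 1.02 ± 0.39 (adjusted p = 0.0383; -0.80 and -1.12 by batch), a call that was lost without replicate 3, 4 or 5 of p110αhep+/+ or 3, 5 or 6 of p110αhep-/- mice (adjusted p 0.0618 to 0.126), with the processed signal (0.0684) or with no filter on dim probes (0.0515). It was also lost in the exact permutation test once p was adjusted (unadjusted p = 0.0303). Saa1 fell by 1.01 ± 0.37 in fed mice (adjusted p = 0.0341; -1.28 and -0.51 by batch), and this call was lost without replicate 2, 4 or 5 of p110αhep-/- or replicate 6 of p110αhep+/+ mice (adjusted p 0.0512 to 0.116). It was also lost with the processed signal (adjusted p = 0.0592), with no filter on dim probes (0.0791), with the replicate block (0.0536) and with no array weights (0.0664). In fasted mice Saa1 differed by -0.91 (adjusted p = 0.0609), and it passed without replicate 1 or 4 of p110αhep-/- mice (adjusted p 0.0203 and 0.0482). On CTRL diet the genotype differences of fasted mice were -0.72 for Saa1 (95% interval -1.44 to 0.0011, adjusted p = 0.145) and -0.84 for Saa2 (-1.57 to -0.10, adjusted p = 0.0903). That of Saa2 passed without replicate 3, 5 or 6 of the p110αhep+/+ mice (adjusted p 0.0136 to 0.0431). That of Saa1 passed without replicate 5 (-1.03, adjusted p = 0.0292). In fed mice on CTRL diet the differences were -0.16 and -0.32.

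Saa3 rose on HFD in 3 of the 4 diet comparisons. In p110αhep+/+ mice on CTRL diet it ran from 10.04 over 10.16 to 10.35 when fed and from 10.08 over 10.34 to 10.72 when fasted. On HFD it ran from 10.39 over 10.87 to 11.49 when fed and from 10.86 over 11.57 to 12.51 when fasted. In neither state did the diets overlap. Saa3 rose by 0.82 ± 0.22 in fed mice (adjusted p = 0.00669; 0.93 and 0.70 by washing batch) and by 1.19 ± 0.23 in fasted mice (adjusted p = 0.000294; 1.08 and 1.21). In p110αhep-/- mice Saa3 ran from 10.21 over 10.38 to 10.90 (CTRL, fed), from 9.81 over 10.24 to 11.39 (CTRL, fasted), from 10.09 over 10.34 to 11.87 (HFD, fed) and from 10.83 over 10.99 to 12.22 (HFD, fasted). Here the diet gave -0.04 in fed mice (95% interval -0.54 to 0.46) and a rise of 0.88 ± 0.24 in fasted mice (adjusted p = 0.014; 0.99 and 0.87 by batch), which did not pass without replicate 4 of the HFD group (0.68, adjusted p = 0.0637) or with only the groups compared (0.88, adjusted p = 0.0596). Fasting raised Saa3 in p110αhep-/- mice on HFD by 0.89 ± 0.26 (adjusted p = 0.00799; 0.98 and 0.77 by batch). That rise did not pass in either batch alone (adjusted p 0.0682 and 0.234), nor in the exact permutation test on unweighted means (0.74, p = 0.0758). In p110αhep+/+ mice on HFD the fast gave 0.56 (adjusted p = 0.0562), and this passed without replicate 1, 2 or 4 of the fasted or 4 or 5 of the fed mice (adjusted p 0.0107 to 0.0481). Between genotypes Saa3 fell by 0.61 ± 0.24 in fed mice on HFD (adjusted p = 0.0464; -0.67 and -0.49 by batch), the weakest of the calls. It was lost when any of 7 of the 12 arrays was left out (replicates 1, 2, 4, 5 and 6 of p110αhep-/- and 4 and 5 of p110αhep+/+ mice, adjusted p 0.0571 to 0.167), and it was -0.72 (adjusted p = 0.0138) without replicate 3 of the p110αhep-/- mice. It was also lost under 9 of 13 alternative settings, with -0.40 (adjusted p = 0.26) with no array weights.

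Of the orosomucoids, Orm3 rose on HFD, while Orm1 and Orm2 were called in no comparison. In p110αhep+/+ mice Orm3 ran from 8.31 over 9.46 to 10.16 (CTRL, fed), from 8.86 over 9.38 to 9.82 (CTRL, fasted), from 10.42 over 11.10 to 11.28 (HFD, fed) and from 9.99 over 11.06 to 12.12 (HFD, fasted). The diets do not overlap in either state. Orm3 rose by 1.65 ± 0.25 in fed mice (adjusted p = 4.8e-06; 1.33 and 1.81 by washing batch) and by 1.545 ± 0.26 in fasted mice (adjusted p = 4.09e-05; 0.91 and 2.10). In p110αhep-/- mice it ran from 8.81 over 9.76 to 10.09 (CTRL, fed), from 8.32 over 8.69 to 9.04 (CTRL, fasted), from 7.86 over 10.19 to 10.49 (HFD, fed) and from 9.997 over 10.35 to 10.91 (HFD, fasted). The fasted p110αhep-/- mice of the 2 diets do not overlap, with a rise of 1.68 ± 0.27 on HFD (adjusted p = 4.09e-05; 1.63 and 1.82 by batch), whereas the diet gave 0.43 in fed p110αhep-/- mice (95% interval -0.13 to 0.99, adjusted p = 0.373). In p110αhep-/- mice on CTRL diet the fast lowered Orm3 by a log2 fold change of -0.91 ± 0.26 (adjusted p = 0.00607; -1.12 and -0.52 by batch). The order of the group means ran from fed over fasted p110αhep+/+ mice on HFD and fasted over fed p110αhep-/- mice on HFD to fed p110αhep-/-, fasted p110αhep+/+, fed p110αhep+/+ and fasted p110αhep-/- mice on CTRL diet, and only the lowest step (0.64) exceeded the pooled SD.

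In fed mice on HFD, Orm3 fell in p110αhep-/- against p110αhep+/+ mice by 0.96 ± 0.27 (adjusted p = 0.00462; -0.77 and -1.22 by washing batch), and the log2 fold change was -0.80 (adjusted p = 0.0109) without the p110αhep-/- mouse at 7.86. In fasted mice on HFD the difference was -0.50 (95% interval -1.05 to 0.05), and in fasted mice on CTRL diet it was -0.63 (adjusted p = 0.0666); each passed when 1 array was left out, replicate 2 of the fasted p110αhep+/+ mice on HFD (-0.74, adjusted p = 0.039) and replicate 5 of those on CTRL diet (-0.76, adjusted p = 0.0337). In the exact permutation test on unweighted means the difference on CTRL diet was -0.68 with p = 0.00649. Once adjusted, this p was 0.0236, so that this test passed both thresholds where limma did not. The second, dimmer Orm3 probe gave smaller changes of the same sign: 1.11 and 1.09 for the diet in fed and fasted p110αhep+/+ mice, 0.99 in fasted p110αhep-/- mice and -0.67 between genotypes in fed mice on HFD, all called. Its change with the fast in p110αhep-/- mice on CTRL diet was -0.48 (adjusted p = 0.0202), short of the fold.

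Orm1 ranged from 15.18 to 16.48 over all 48 mice and Orm2 from 13.96 to 15.44. Several of their differences had an adjusted p of at most 0.05 with a fold under 1.5, all of them lower. After the fast on CTRL diet, Orm1 differed by -0.40 in p110αhep+/+ mice (adjusted p = 0.00484) and by -0.54 in p110αhep-/- mice (adjusted p = 0.00024), and Orm2 by -0.40 (adjusted p = 0.016) and -0.43 (adjusted p = 0.0097). Against p110αhep+/+ mice, p110αhep-/- mice on HFD had -0.42 when fed and -0.49 when fasted for Orm1 (adjusted p = 0.0045 and 0.00137) and -0.50 and -0.53 for Orm2 (adjusted p = 0.00329 and 0.00204). The 2 differences of Orm2 on HFD passed the fold as well when single arrays were left out: replicate 6 of the fed p110αhep-/- mice (-0.60), and replicate 2 or 3 of the fasted p110αhep+/+ or 1 of the fasted p110αhep-/- mice (-0.61 to -0.63). HFD itself gave Orm1 -0.44 in fed p110αhep-/- mice (adjusted p = 0.0129) and -0.22 in fed p110αhep+/+ mice (adjusted p = 0.154).

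The probes of Orm1 and Orm3 cover the same stretch of 2 neighbouring gene copies, at chr4:63007395-63009038 and chr4:63018910-63020393 of mm9, the build of the array's coordinates, each across an intron on the plus strand. Over their 52 shared positions they are identical at 46 and differ at 6, which are in capitals.
Orm1: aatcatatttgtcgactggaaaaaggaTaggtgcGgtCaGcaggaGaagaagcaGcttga
Orm3: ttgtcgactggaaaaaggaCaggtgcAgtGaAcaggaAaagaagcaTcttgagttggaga
By the count of identical positions, the next pair of probes among the 13 matched at 26 of 55. How far each probe also binds the RNA of the other copy was not tested. The same holds for Saa1 and Saa2, whose probes are identical at 18 of 58 positions. Orm1 did not rise with Orm3: in fed p110αhep+/+ mice the diet gave 1.65 for Orm3 and -0.22 for Orm1.

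Lcn2 gave the largest fold change of the 10 genes in the 12 comparisons, that of the diet in fasted p110αhep+/+ mice. In p110αhep+/+ mice it ran from 9.97 over 11.16 to 11.76 (CTRL, fed) and from 10.75 over 11.41 to 12.61 (CTRL, fasted). On HFD it ran from 11.85 over 12.70 to 12.93 (fed) and from 12.98 over 13.58 to 14.63 (fasted). Every mouse on HFD lay above every mouse on CTRL diet in the same state, and every fasted mouse on HFD above every fed mouse on HFD. The diet raised Lcn2 2.997-fold in fed mice (1.58 ± 0.31, adjusted p = 0.000226; 1.58 and 1.41 by washing batch) and 4.67-fold in fasted mice (2.22 ± 0.32, adjusted p = 4.22e-06; 1.57 and 2.81). Of 8 measured neutrophil markers, 2 rose in the fed and 4 in the fasted comparison (S100a9 by 0.91 and 1.61). The others were not called, among them Ly6g (-0.08 and -0.09), and the markers' part in the result was not tested. Lcn2 of p110αhep-/- mice ran from 10.15 over 10.68 to 11.17 (CTRL, fed), from 10.48 over 11.74 to 12.87 (CTRL, fasted), from 10.70 over 11.27 to 12.12 (HFD, fed) and from 11.55 over 12.20 to 13.53 (HFD, fasted). Those groups overlap between the diets, with differences of 0.68 (95% interval -0.02 to 1.38, adjusted p = 0.227) in fed and 0.78 (0.09 to 1.47, adjusted p = 0.146) in fasted mice.

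Between genotypes Lcn2 fell 2.59-fold in fed mice on HFD (-1.38 ± 0.33, adjusted p = 0.00124; -1.54 and -0.95 by washing batch) and by 1.32 ± 0.34 on the log2 scale in fasted mice on HFD (adjusted p = 0.00213; -0.75 and -1.65). On CTRL diet the differences were -0.47 (95% interval -1.14 to 0.20) and 0.12 (-0.52 to 0.76). The fast raised Lcn2 by 1.02 ± 0.31 in p110αhep+/+ mice on HFD (adjusted p = 0.0111; 0.32 and 1.69 by batch), by 0.97 ± 0.33 in p110αhep-/- mice on CTRL diet (adjusted p = 0.018; 0.75 and 1.02) and by 1.07 ± 0.36 in p110αhep-/- mice on HFD (adjusted p = 0.0218; 1.1001 and 0.99). In p110αhep+/+ mice on CTRL diet it gave 0.38 (95% interval -0.26 to 1.03). Both calls in p110αhep-/- mice rest on single arrays: on CTRL diet the call was lost without replicate 3 of the fed or 4 of the fasted mice (adjusted p 0.0601 and 0.0724) and in the exact permutation test once p was adjusted (unadjusted p = 0.026), and on HFD without replicate 2 of the fed or 4 of the fasted mice (adjusted p 0.101 and 0.0838). The second Lcn2 probe gave 1.46 and 2.09 for the diet in fed and fasted p110αhep+/+ mice and -1.30 and -1.28 between genotypes on HFD.

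Hp, the gene with the smallest spread within groups, lay between 17.88 and 18.55 in all 48 mice, and its probe was the 29th brightest of the 30793 kept. No array was saturated there, with signals of 230360 to 399374. Quantile normalization gives the brightest probes of every array the same few values, which can narrow this spread. Thus 18.3501 was the highest value of fed and the lowest of fasted p110αhep-/- mice on HFD. How far this shapes the p-values was not tested. The differences of Hp were small. After the fast they were 0.33 in p110αhep-/- mice on CTRL diet (adjusted p = 2.57e-07), 0.14 in p110αhep+/+ mice on CTRL diet (adjusted p = 0.0141) and 0.17 in p110αhep-/- mice on HFD (adjusted p = 0.0114). On HFD they were 0.21 in fed p110αhep+/+ and 0.20 in fed p110αhep-/- mice (adjusted p = 0.00069 and 0.00487). Between genotypes they were -0.18 in fed mice on either diet (adjusted p = 0.00571 on CTRL diet and 0.0025 on HFD). None reached the fold of 1.5.

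Apcs, which encodes serum amyloid P component, was called between genotypes and with the fast, and in no comparison of diets. In fed mice on CTRL diet it ran from 10.55 over 10.90 to 11.47 in p110αhep+/+ and from 9.90 over 10.23 to 10.41 in p110αhep-/- mice. The genotypes do not overlap, and Apcs fell by 0.82 ± 0.22 (adjusted p = 0.00485; -0.79 and -0.76 by washing batch). In fed mice on HFD it ran from 10.18 over 10.68 to 11.01 in p110αhep+/+ and from 9.37 over 9.96 to 10.84 in p110αhep-/- mice and fell by 0.69 ± 0.22 (adjusted p = 0.0116; -1.02 and -0.19), and without replicate 4 of the p110αhep-/- mice the fold was under 1.5 (-0.57, adjusted p = 0.045). The exact permutation test gave an unadjusted p of 0.0216 there, and the call was lost once its p was adjusted. Fasted mice on HFD had 10.94, 11.34 and 11.78 as lowest, median and highest in p110αhep+/+ and 9.60, 10.71 and 11.88 in p110αhep-/- mice, the widest group for this gene. Apcs fell there by 0.66 ± 0.22 (adjusted p = 0.0179; -0.22 and -1.20), a call lost without replicate 4 of p110αhep+/+ or 1 or 3 of p110αhep-/- mice (-0.38 to -0.59, adjusted p 0.0514 to 0.175) or with only the groups compared (-0.71, adjusted p = 0.069), and at p = 0.0866 in the exact permutation test. Fasted mice on CTRL diet had 10.57, 10.75 and 11.50 in p110αhep+/+ and 10.72, 10.99 and 11.27 in p110αhep-/- mice, and did not differ past the threshold (0.15, 95% interval -0.26 to 0.57).

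The fast raised Apcs in p110αhep-/- mice on CTRL diet by 0.83 ± 0.21 with no overlap (adjusted p = 0.00194; 0.81 and 0.74 by washing batch) and in p110αhep+/+ mice on HFD by 0.69 ± 0.20 (adjusted p = 0.00865; 0.57 and 0.88). In p110αhep-/- mice on HFD it gave 0.72 ± 0.23 (adjusted p = 0.0179), but with 1.37 in batch 1 and -0.14 in batch 2 the sign differed between the batches. That call was also lost without replicate 4 of the fed or 4 or 6 of the fasted mice (adjusted p 0.0568 to 0.122) or with only the groups compared (0.131), and at p = 0.0887 in the exact permutation test. The diet moved Apcs past the threshold in no comparison, with differences from -0.30 to 0.53, and the highest, in fasted p110αhep+/+ mice (adjusted p = 0.0748), passed without replicate 4 of the CTRL group (0.68, adjusted p = 0.0252).

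Crp was the only gene of the 10 that was higher in fed p110αhep-/- mice at an adjusted p of at most 0.05, by 0.30 on CTRL diet (adjusted p = 0.0162) and by 0.47 on HFD (adjusted p = 0.000111), both under the fold of 1.5. On HFD its fed groups ran from 8.80 over 9.10 to 9.20 in p110αhep+/+ and from 9.34 over 9.52 to 9.65 in p110αhep-/- mice and did not overlap. The 2 Crp probes disagreed on the fast. The brighter probe gave 0.09 and 0.29 in p110αhep+/+ mice on CTRL diet and HFD (adjusted p = 0.463 and 0.00879) and -0.31 and 0.00 in p110αhep-/- mice (adjusted p = 0.00767 on CTRL diet). The dimmer probe rose in all 4, by 0.89, 0.83, 0.97 and 0.75 in the same order (adjusted p from 3.91e-08 to 4.4e-05), with no overlap between fed and fasted mice in any of them. That probe lies 133303 bases from the brighter on chromosome 1 (mm9, chr1:174762815-174762874 against chr1:174629452-174629511) and was well above background on 44 of 48 arrays, with signals of 40 to 127, so that which transcript it reads is unsettled here and Crp is described by the brighter probe.

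**Figure D3:**
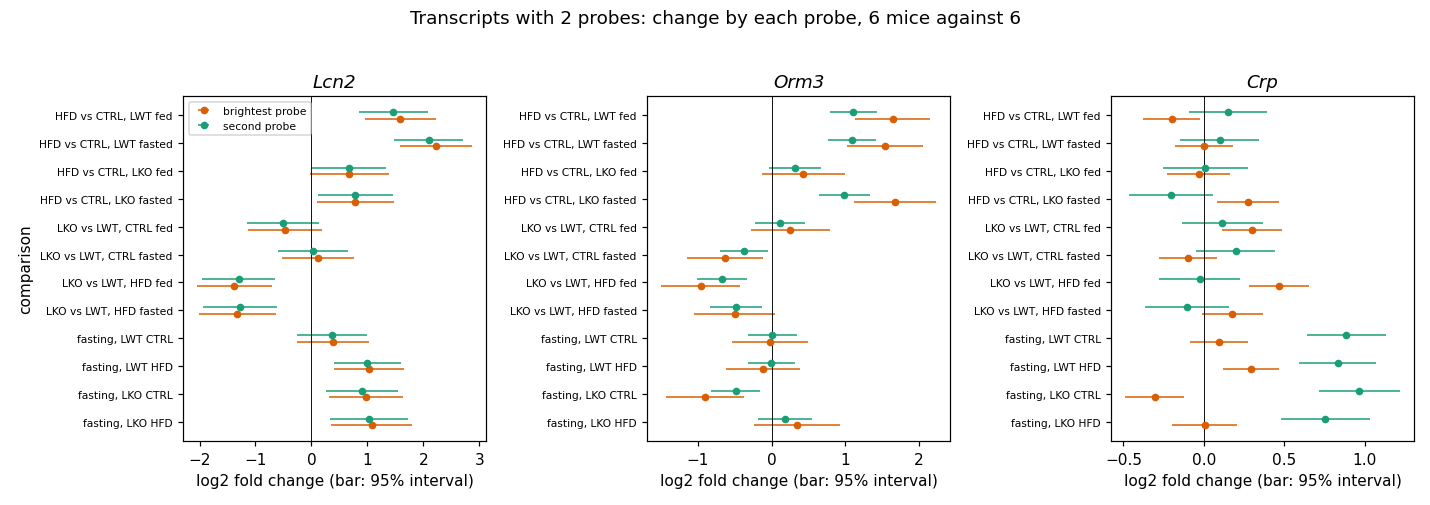
Log2 fold change (x axis) with its 95% interval by the brighter (orange) and the second probe (green) of Lcn2, Orm3 and Crp in 12 comparisons of 6 mice against 6 (y axis). The probes of Lcn2 lie on each other, the second Orm3 probe gives smaller changes of the same sign where the brighter was called, and only the second Crp probe rises with the fast (0.75 to 0.97).

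Whether an effect differed between groups was tested directly with 6 interaction terms. The diet effect differed past the threshold between fasted and fed p110αhep-/- mice for Orm3 alone of the 10 (difference 1.25 ± 0.39, 95% interval 0.46 to 2.04, adjusted p = 0.0414), against 2.88% of all genes. It was 1.32 in washing batch 1 and 1.23 in batch 2, and 1.09 (adjusted p = 0.047) without the fed mouse at 7.86. The call passed in 11 of the 24 fits that leave out 1 array. In the others, without replicate 1, 3, 5 or 6 of the fed or fasted mice on CTRL diet, replicate 5 of the fed mice on HFD or replicate 1, 3, 4 or 5 of the fasted mice on HFD, the adjusted p was 0.0502 to 0.0857. With no filter on dim probes it was 0.0664. In the same term Saa3 had 0.92 (adjusted p = 0.101) and passed without replicate 3 of the fed mice on HFD (1.02, adjusted p = 0.046) or replicate 2 of the fasted mice on CTRL diet (1.14, adjusted p = 0.0265). The same term in p110αhep+/+ mice called none of the 10, against 0.893%.

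The genotype by diet terms called none of the 10 by limma, against 1.34% in fed and 1.85% in fasted mice. The diet effects of the 2 genotypes are thus not shown to differ for any of the 10 at this threshold. Orm3 came nearest in fed mice (-1.22 ± 0.38, 95% interval -1.97 to -0.46, adjusted p = 0.0688) and passed without replicate 2 or 4 of the p110αhep-/- or 4 of the p110αhep+/+ mice on CTRL diet (adjusted p 0.0366 to 0.0465). Lcn2 came nearest in fasted mice (-1.44 ± 0.47, adjusted p = 0.0629) and passed without replicate 4 of the p110αhep+/+ or 1 of the p110αhep-/- mice on CTRL diet, or 2 or 6 of the p110αhep+/+ or 4 of the p110αhep-/- mice on HFD (adjusted p 0.0194 to 0.047). Without that last array Apcs passed as well (-1.06, adjusted p = 0.0169). The genotype by fasting terms called none either, against 1.31% on CTRL diet and 1.37% on HFD. Apcs came nearest, on CTRL diet (0.97 ± 0.30, adjusted p = 0.0546), and passed without replicate 2 or 6 of the fed p110αhep+/+, 4 of the fasted p110αhep+/+, 2 of the fed p110αhep-/- or 1 of the fasted p110αhep-/- mice (adjusted p 0.0282 to 0.0473).

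Mice of a group differed from each other, and several genes were high in the same mice. This was measured on the deviation of each mouse from its group mean, over 48 mice and the 45 pairs of genes, with permutation p-values adjusted over the 45. Pearson's r and Spearman's rho both passed in 17 pairs. In all 17 r was above 0, and its sign held within both washing batches and without the 2 mice farthest from the median. Saa1 and Saa2 were nearly the same measure (r = 0.99, rho = 0.99), as were Orm1 and Orm2 (r = 0.96, rho = 0.92). Lcn2 followed Saa1 with r = 0.77 (rho = 0.78, permutation p = 1e-05 for each, the smallest the resampling can give). It was 0.78 and 0.74 in the 2 batches and 0.73 without the 2 farthest mice. Orm2 followed Saa1 with r = 0.67 (rho = 0.50, permutation p = 0.00041 for rho) and Apcs followed Lcn2 with r = 0.53 (rho = 0.53, permutation p = 0.0001 for r). Orm3 passed with Lcn2 (r = 0.40, rho = 0.46), Orm2 (r = 0.38, rho = 0.41) and Orm1 (r = 0.37, rho = 0.37). Saa3 passed with none of the other 9, at r = 0.19 with Saa1 and 0.24 with Lcn2, and Crp with none, at r = -0.31 with Saa1.

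**Figure D4:**
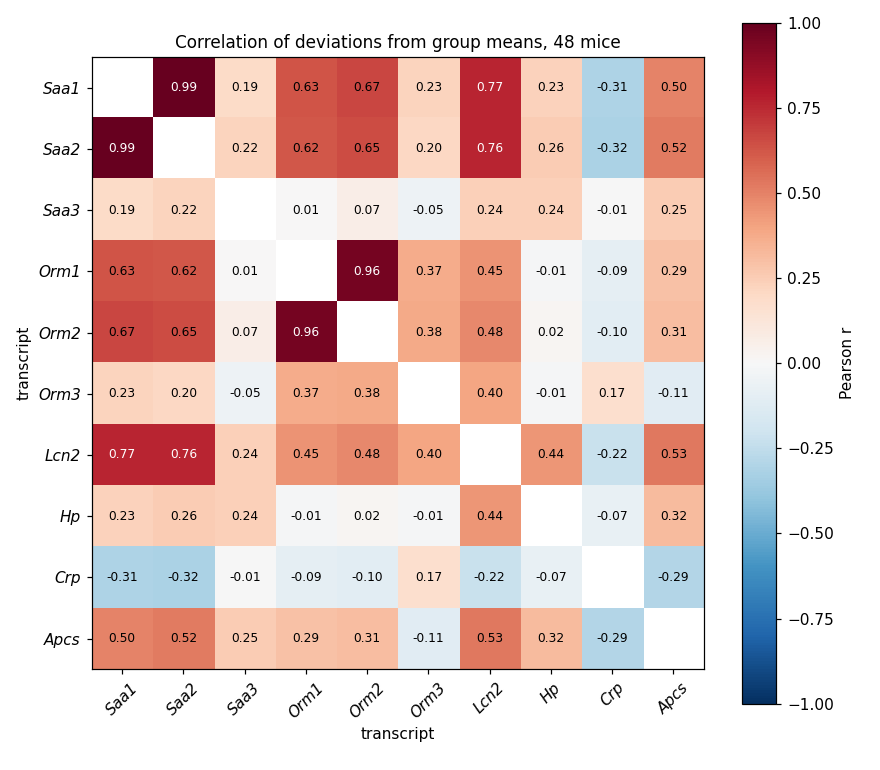
Pearson's r (colour and number) between the deviations from group means of each pair of the 10 acute phase genes (both axes) over 48 mice. Saa1, Saa2, Orm1, Orm2, Lcn2 and Apcs form a block of positive values with r = 0.99 for Saa1 with Saa2, while the row of Saa3 stays between -0.05 and 0.25.

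The genes with the most similar pattern over the 48 arrays, group differences included, were looked up among 20449 other genes by Pearson's r, as a description. For Saa1 and Saa2 the nearest was Cyb561 (r = 0.83 and 0.82), followed by the complement gene C4b (r = 0.73 and 0.72), and for Lcn2 it was C4b (r = 0.77) with Adgrg2 and Chil1 (r = 0.77 each). Saa3 was nearest to Klf6 and Ptpn22 (r = 0.70 each). Orm3 was nearest to Slc13a3 (r = 0.85), Rcan2 and the cytochrome gene Cyp2b13 (r = 0.81 each), none of which was among the 3 nearest genes of the other 9. Hp was nearest to Acadm, Vnn1 and Crat (r = 0.84, 0.81 and 0.80), which act in fatty acid and coenzyme A metabolism. Orm1 was nearest to Cmtm6, Ntrk2 and Cyb5r3 (r = 0.79, 0.77 and 0.76), Orm2 to Scamp3, Bmyc and Ehbp1l1 (r = 0.74, 0.74 and 0.72), Crp to Gm4402, Ints8 and Gpc4 (r = 0.70, 0.69 and 0.69) and Apcs to Zbp1, Neurl2 and Ctsz (r = 0.72, 0.68 and 0.68).

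Other genes of the response were read from lists, with 54 of 56 genes measured (Il6 and Osm were below the filter) and 31 of them called in none of the 12 comparisons. For the counts that follow, the shares of all genes called in single comparisons were 0.918 to 2.65% higher and 0.971 to 1.11% lower for the diet, 1.33 to 2.31% higher and 1.9 to 4.22% lower for the genotype, and 2.24 to 3.65% higher and 2.47 to 3.43% lower for the fast. Of 18 further positive acute phase genes, 4 rose and 1 fell on HFD in fasted p110αhep+/+ mice and 1 rose and 1 fell in fed p110αhep+/+ mice, and in p110αhep-/- mice 3 rose and 1 fell (fed) and 1 rose and 1 fell (fasted). The gene that fell each time was Hamp, which encodes the iron hormone hepcidin. It ran from 14.57 to 16.66 in the 4 groups on CTRL diet, from 11.14 to 13.82 in fed and 6.45 to 14.29 in fasted p110αhep+/+ mice on HFD, and from 4.88 to 14.86 in fed and 4.89 to 16.06 in fasted p110αhep-/- mice on HFD, where 4 and 3 of 6 arrays were well above background. Its fitted log2 fold change on HFD in fed p110αhep-/- mice was -8.90 ± 1.22 (adjusted p = 1.35e-06) and rests in part on arrays at background. Between genotypes, 2 of the 18 rose and 1 fell in fed mice on HFD and none rose and 2 fell in fasted mice on HFD, and on CTRL diet 1 rose and none fell (fed) and 2 rose and 1 fell (fasted). The fast raised 3 and 5 of the 18 in p110αhep+/+ and p110αhep-/- mice on CTRL diet and 5 and 2 on HFD and lowered none. Il1rn, the interleukin 1 receptor antagonist, rose by 1.69 ± 0.17 (adjusted p = 5.12e-11) and Lrg1, a secreted glycoprotein, by 1.28 ± 0.13 (adjusted p = 5.1e-11) with the fast in p110αhep-/- mice on CTRL diet. Lbp, the lipopolysaccharide binding protein, named after its values were seen, rose with the fast in all 4 backgrounds (0.86 to 1.00). Of 7 negative acute phase genes, which fall in the response, only Serpina6 was called, higher by 0.63 ± 0.13 in fed p110αhep-/- mice on CTRL diet (adjusted p = 0.000423).

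Of 19 cytokine receptors and genes that relay their signal, 5 rose and none fell in p110αhep-/- against p110αhep+/+ fed mice on HFD, where 2.2% of all genes were called higher and 6 of the 10 acute phase genes fell. The other 14 did not pass, and the median of the 19 was 0.12 against 0.03 over all genes. Those that rose were Socs3, the feedback inhibitor of the STAT3 pathway (1.504 ± 0.26, adjusted p = 1.18e-05), Lifr (1.16), Stat3 (0.71), Il1r1 (0.70) and Il6ra (0.63), the last 4 named for this comparison after their values were seen. In fed mice on CTRL diet 4 rose, in fasted mice 1 rose on CTRL diet and 2 on HFD. The fast raised 3 in each genotype on CTRL diet and 5 in p110αhep+/+ and 4 in p110αhep-/- mice on HFD, led by Il1r1, an interleukin 1 receptor (2.18 ± 0.20 in p110αhep+/+ mice on HFD, adjusted p = 9.86e-12). HFD lowered Lifr, a receptor chain of the interleukin 6 family, in fed p110αhep+/+ mice (-1.27 ± 0.18, adjusted p = 1.36e-06) and 1 gene in fed p110αhep-/- mice, raised 1 in fasted p110αhep-/- mice and none in fasted p110αhep+/+ mice. Of 7 hepatocyte transcription factors, the fast raised 2, 2 and 3 in p110αhep+/+ and p110αhep-/- mice on CTRL diet and p110αhep-/- mice on HFD and none in p110αhep+/+ mice on HFD, among them Cebpd (1.25 ± 0.21, adjusted p = 7.15e-06) and Cebpb (1.04 ± 0.16, adjusted p = 1.81e-06) in p110αhep-/- mice on CTRL diet and Hnf4a (0.63 ± 0.09, adjusted p = 1.73e-06) in p110αhep-/- mice on HFD. HFD raised 1 of the 7 in fed p110αhep+/+ mice, Cebpd (0.85), and none was called between genotypes, where Hnf4a in fasted mice on HFD came nearest (0.41, adjusted p = 0.000321, fold under 1.5). Of 3 measured cytokines, Il1b fell on HFD in fed p110αhep-/- mice (-0.81 ± 0.26, adjusted p = 0.0332) and Tnf was higher in p110αhep-/- than p110αhep+/+ fed mice on HFD (0.59 ± 0.17, adjusted p = 0.00531).

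Markers of other cells moved with some of these results. Lcn2 is also made by neutrophils, which store the protein in their granules, and Saa3 also by macrophages and fat cells. Of 8 measured neutrophil markers (Ngp and Ltf were below the filter), S100a8 and S100a9 rose on HFD in fed p110αhep+/+ mice (0.84 and 0.91), 4 rose in fasted p110αhep+/+ mice (S100a8 1.45, S100a9 1.61, Mpo 0.66 and Camp 1.02) and the same 4 fell in fasted p110αhep-/- against p110αhep+/+ mice on HFD (-1.29, -1.52, -0.73 and -1.16). The other 6 ran from -0.23 (Elane, adjusted p = 0.0071 with a fold under 1.5) to 0.37 (Camp) for the diet in fed p110αhep+/+ mice, with Mmp8 at -0.10 and Ly6g at -0.08. The other 4 ran from -0.09 (Ly6g) to 0.58 (Retnlg, adjusted p = 0.00486 with a fold under 1.5) in fasted p110αhep+/+ mice, and Retnlg gave -0.41 (adjusted p = 0.037) between genotypes in fasted mice on HFD. In fed mice on HFD none of the 8 differed between genotypes. Also with folds under 1.5, Ly6g gave 0.39 with the fast in p110αhep-/- mice on HFD (adjusted p = 0.00253). For the diet in fasted p110αhep-/- mice Ly6g gave 0.29 (adjusted p = 0.0356). Retnlg gave 0.39 with the fast in p110αhep-/- mice on CTRL diet (adjusted p = 0.0427). On CTRL diet Elane gave -0.27 with the fast in p110αhep+/+ mice (adjusted p = 0.00125) and -0.20 between genotypes in fed mice (adjusted p = 0.0294). The summed neutrophil signal had medians (and ranges) of 1799 (1565 to 2093), 1628 (1346 to 2035), 2061 (1757 to 5345) and 2401 (2130 to 4515) in p110αhep+/+ mice, in the order CTRL fed, CTRL fasted, HFD fed and HFD fasted, and of 1582 (1388 to 1673), 1539 (1381 to 2213), 2062 (1414 to 2740) and 1588 (1441 to 1817) in p110αhep-/- mice. Thus 2 and 4 of the 8 rose in the 2 diet comparisons in which Lcn2 and Saa3 rose in p110αhep+/+ mice, and 4 fell in 1 of the 2 comparisons of genotypes in which Lcn2 fell. Their part in those results was not tested. Of 7 measured Kupffer cell and macrophage markers none was called in the 12 comparisons, with summed signals of 16620 to 65170. With folds under 1.5, Cd68 gave 0.49 (adjusted p = 0.00119) for the diet in fasted p110αhep+/+ mice and -0.35 (adjusted p = 0.0148) between genotypes in fasted mice on HFD. Vsig4 gave 0.47 and 0.50 between genotypes in fasted mice on CTRL diet and HFD (adjusted p 0.023 and 0.0174), and Clec4f -0.33 with the fast in p110αhep+/+ mice on HFD (adjusted p = 0.0373). Their part in the results was not tested.

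The remaining marker lists are given by their calls. Among hepatocyte markers, Cps1 was higher in p110αhep-/- mice in fed mice on CTRL diet (0.68) and on HFD in both states (1.36 and 1.098) and fell on HFD in fed p110αhep+/+ mice (-0.82), and Hnf4a rose with the fast in p110αhep-/- mice on HFD (0.63). The fat cell marker Cfd was lower in p110αhep-/- mice in all 4 comparisons of genotypes (-5.56 to -4.11) and higher on HFD in all 4 diet comparisons (1.78 to 3.22), whereas Adipoq was below the filter and Lep and Plin1 were never called. Krt19, of the bile duct cells, was lower in p110αhep-/- mice on HFD (-0.89 fed and -0.73 fasted) and in fasted mice on CTRL diet (-0.73), and fell with the fast in p110αhep-/- mice on CTRL diet (-1.05). Of 4 stellate cell markers, Col1a1 rose on HFD in p110αhep+/+ mice (1.29 and 1.83) and was lower in p110αhep-/- mice in 3 of the 4 comparisons of genotypes (-2.32 to -0.99), and Lrat was lower in fed p110αhep-/- mice on CTRL diet (-0.65). With the fast Col1a1 fell on CTRL diet in p110αhep+/+ (-0.83) and p110αhep-/- mice (-1.17) and on HFD in p110αhep-/- mice (-0.81), and Lrat fell in p110αhep+/+ mice on CTRL diet (-0.68). The endothelial marker Lyve1 was lower in fed p110αhep-/- mice (-1.13 on CTRL diet and -0.82 on HFD) and rose with the fast in p110αhep-/- mice (1.07 on CTRL diet and 0.82 on HFD), 2 of the backgrounds in which Lcn2 and Apcs rose with the fast. Neither the 2 measured lymphocyte markers nor Ctrb1 of the pancreas, the 1 measured of 4, was called. Whether these cells bear on the acute phase genes was not tested.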

How the data were processed

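The authors extracted each array with Agilent Feature Extraction 10.10.1.1, and the deposited scanner files hold spot intensity, local background and 0 or 1 flags (other: well above background, saturated, outlier). A table of log2 values deposited by the authors, made from the median signal after filtering, correction for the washing bath and quantile normalization, served as an alternative. Here outlier spots were left out, spots of a probe were averaged and log2 of the median signal was taken for 59305 of 62976 spots. Probes well above background on at least 5 of 6 arrays of at least 1 group were kept, the washing batch was removed with group means protected, and arrays were quantile normalized. The order of steps follows the authors' methods, which do not state the rule of the filter or how the batch was removed; their table holds 32437 probes against 30793 kept here. limma 3.58.1 (R 4.3.3) with array weights was fitted over all 48 arrays and 8 groups, with 12 simple contrasts and 6 interactions and Benjamini-Hochberg adjustment over all kept probes. A gene is called by its brightest kept probe. The 95% intervals are from the same fit, not adjusted. The arrays' number limits the precision.

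The acute phase genes, the gene lists and the tests were chosen with earlier results of these data known. Named beside them are, per list, up to 3 called genes of largest change (others are marked as named after their values were seen), the 3 genes most alike in pattern to each of the 10, Pik3ca and cell markers. 1 of the genes alike in pattern is not reported here. Correlations used 100000 permutations (SciPy 1.17.1). The replicate numbers did not pair the samples: deviations of same-numbered arrays had a median r of 0.0117. The fit was tested on simulated data, and no result of that test is given here. Per the authors' methods, control mice were littermates of the knockouts; which mice shared a litter or cage is not given in the sources used here. Alternatives were other background corrections, scalings, filters, probes, blocks and tests, and leaving out each array.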

Additional observations from a re-analysis of the deposited data

Results flagged for a closer look

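In 8 of 80 groups of 6 mice (10 genes in 8 groups), a single mouse stood apart by Dixon's criterion with a critical value of 0.625, where chance gives about 1 in 20. Saa3 was highest at 10.9 in replicate 5 of fed LKO mice on CTRL diet and at 11.87 in replicate 3 of fed LKO mice on HFD. That latter mouse was also the lowest for Orm3, at 7.86. Replicate 1 of fasted LKO mice on HFD was highest for both Orm1 (15.94) and Orm2 (14.84). Lcn2 was lowest at 11.85 in replicate 3 of fed LWT mice on HFD, and Crp was lowest at 8.8 in replicate 6 of the same group. Apcs was highest at 11.5 in replicate 4 of fasted LWT mice on CTRL diet, 1 of the 2 mice with high Saa1.

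The effect of HFD on Orm3 in LKO mice was larger after the fast than in fed mice, by 1.25 on the log2 scale in the limma interaction term. This call passed in 11 of the 24 fits that leave out 1 array. It was lost with no filter on dim probes and in each washing batch alone.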

How the results depend on the processing

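Of the 29 called changes of single genes, Orm3 on HFD in fed LWT and fasted LKO mice was lost under no alternative. All 29 were kept with normexp, with the washing batch as a term and with the median over probes, 28 with the slide as a block and with the deposited log2 values, 26 with the processed signal, 25 with no filter, 25 with no array weights and 23 with only the groups compared, and the exact permutation test, its p adjusted over its own tests, kept 19 of 28. That test also passed both thresholds for Saa1 and Saa2 on HFD in fed LWT mice, which limma did not call. The same held for Orm3 between genotypes in fasted mice on CTRL diet. Washing batch 1 alone, with 3 arrays per group, kept 6 calls, and batch 2 alone kept 13. In batch 2, 1 call, Apcs with the fast in LKO mice on HFD, turned to -0.14.

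Counts of called genes among the 10 that moved by over 1.5 times were as follows. With no fold threshold, the fast on CTRL diet gave 3 in LWT (from 0) and 7 in LKO mice (from 3), the genotypes 3 (from 1) and 10 (from 6) in fed mice on CTRL diet and HFD and 1 (from 0) and 5 (from 3) in fasted mice, and the diet 2 in fed LKO mice (from 0). The shares of all genes at that adjusted p were, in this order, 32.5, 35.4, 21.5, 32.9, 24.8, 36.8 and 12.2%. In batch 1 the fast gave 0 in LWT and 1 in LKO mice on HFD (from 2 and 3), the genotypes 0 and 3 in fed and 2 and 0 in fasted mice on CTRL diet and HFD (from 1, 6, 0 and 3), the diet 1 and 0 in fed and fasted LWT (from 3 and 5) and 1 and 1 in fed and fasted LKO mice (from 0 and 2), and the diet by fasting term in LKO mice 0 (from 1). In batch 2 the fast gave 2 and 0 in LWT and LKO mice on CTRL diet and 0 in LKO mice on HFD (from 0, 3 and 3), the genotypes 0 and 1 in fed mice on CTRL diet and HFD (from 1 and 6), the diet 1 in fasted LKO mice (from 2) and the diet by fasting term 0. With only the groups compared, there was 1 between genotypes in fasted mice on CTRL diet (from 0), 5 and 3 for the diet in fed and fasted LWT mice (from 3 and 5), 1 in fasted LKO mice (from 2) and 1 in the genotype by fasting term on CTRL diet (from 0), a term that also gave 1 with normexp and with the slide block. The diet in fasted LWT mice gave 3 with no array weights (from 5), the genotype by diet term in fed mice 1 with the median over probes (from 0), and the diet by fasting term in LKO mice 0 with no filter (from 1). What caused these shifts was not tested.

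The replicate number as a block lost 2 of the 29 calls and gave 1 in the genotype by diet term of fasted mice (from 0). With a range of r from -0.3507 to 0.3361 between same-numbered arrays, and 15 of 48 arrays most like an array of their own number, the numbers were not taken as pairs.

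When each array was left out in turn, the counts ran, for the fast, from 0 to 0 (LWT, CTRL), 2 to 3 (LKO, CTRL), 2 to 3 (LWT, HFD) and 1 to 3 (LKO, HFD). For the genotypes they ran from 1 to 1 and 3 to 6 in fed and 0 to 3 and 1 to 5 in fasted mice on CTRL diet and HFD. For the diet they ran from 3 to 4 and 3 to 6 in fed and fasted LWT and 0 to 0 and 1 to 4 in fed and fasted LKO mice. For genotype by diet they ran from 0 to 1 (fed) and 0 to 2 (fasted), for genotype by fasting from 0 to 1 (CTRL) and 0 to 0 (HFD), and for diet by fasting from 0 to 0 (LWT) and 0 to 2 (LKO).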
